A study of Mus musculus with 6 samples.

Results

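The 9 genes described here encode matrix proteins of the connective tissue that surrounds and threads the adrenal gland: the proteoglycan genes Dcn, Bgn and Lum, the collagen genes Col1a1, Col1a2 and Col3a1, and Fn1, Sparc and Mgp. They were chosen by name, as every probe set on the array that is annotated to one of these genes and to no other, which gave 14 of the 12488 probe sets and 9 of the 8252 genes named by a probe set. RNA came from adrenal glands of the hypertensive strain BPH and the hypotensive strain BPL, with 3 arrays per strain of the Affymetrix MG_U74Av2 type. Both are inbred mouse lines selected on blood pressure, BPH upward and BPL downward. No treatment, age, sex or number of animals per array is given in the sources used here. Nothing there says that the arrays of a strain came from separate animals, so the p-values measure the spread between these arrays, which may be technical.

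Interstitial collagens are secreted as procollagen chains that wind into triple helices and assemble outside the cell into fibrils. Small leucine-rich proteoglycans such as decorin, biglycan and lumican bind those fibrils and set their spacing. Fibronectin links the matrix to cells, SPARC binds collagen, and matrix Gla protein keeps the matrix from calcifying. In the adrenal gland these proteins form the capsule, whose mesenchymal cells lie next to the outer cortex, and the stroma along the vessels; fibroblasts of fat, nerve and muscle make the same proteins. In bulk RNA of a gland, a change in the number of matrix-producing cells and a change in RNA per cell cannot be told apart.

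The RefSeq promoter table held a window of 250 bases before to 50 bases after the gene start for 4 of the 9 genes, in build GRCm38.p6. Among these 4, the brightest probe set of Bgn separated the strains, while those of Col1a2, Col3a1 and Sparc did not. The letters are those of the build, and no BPH or BPL sequence was read, so they cannot show a strain difference. Capitals mark the motifs searched on both strands, which were the TATA box TATAAA, the CCAAT box CCAAT and the Sp1 motif GGGCGG.
Bgn, chrX:73483351-73483650, plus strand: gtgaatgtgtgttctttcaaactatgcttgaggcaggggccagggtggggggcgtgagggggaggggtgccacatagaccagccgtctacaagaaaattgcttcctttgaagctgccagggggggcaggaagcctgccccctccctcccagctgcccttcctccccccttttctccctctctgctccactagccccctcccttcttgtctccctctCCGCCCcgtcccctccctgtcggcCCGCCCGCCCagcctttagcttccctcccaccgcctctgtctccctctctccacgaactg
Col1a2, chr6:4505368-4505667, plus strand: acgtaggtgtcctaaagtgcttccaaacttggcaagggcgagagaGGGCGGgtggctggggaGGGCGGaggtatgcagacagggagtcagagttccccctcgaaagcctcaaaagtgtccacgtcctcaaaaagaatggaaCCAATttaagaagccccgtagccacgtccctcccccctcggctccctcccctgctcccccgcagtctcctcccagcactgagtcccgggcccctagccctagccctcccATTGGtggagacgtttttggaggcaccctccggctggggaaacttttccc
Col3a1, chr1:45311288-45311587, plus strand: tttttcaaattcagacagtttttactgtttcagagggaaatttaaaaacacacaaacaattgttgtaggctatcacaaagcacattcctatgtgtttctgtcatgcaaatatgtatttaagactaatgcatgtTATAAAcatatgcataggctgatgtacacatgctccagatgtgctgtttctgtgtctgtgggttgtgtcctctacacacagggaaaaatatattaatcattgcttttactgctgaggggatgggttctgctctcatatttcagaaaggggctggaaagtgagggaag
Sparc, chr11:55420031-55420330, minus strand: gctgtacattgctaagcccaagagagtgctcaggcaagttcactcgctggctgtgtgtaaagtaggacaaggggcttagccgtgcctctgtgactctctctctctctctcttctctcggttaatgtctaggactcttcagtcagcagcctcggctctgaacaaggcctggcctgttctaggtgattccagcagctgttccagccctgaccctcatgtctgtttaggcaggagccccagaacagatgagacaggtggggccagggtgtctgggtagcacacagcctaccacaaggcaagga
The Bgn window held the Sp1 motif 3 times, each as its reverse complement, with 2 of them overlapping, and neither of the other motifs. The Col1a2 window held 2 Sp1 motifs and 2 matches to the CCAAT box, 1 of them at the gene start itself. The Col3a1 window held 1 match to the TATA box, which began 117 bases before the gene start. The Sparc window held none of the 3 motifs. Over all 32851 windows of this length, 35.7% held the Sp1 motif, 37.4% the CCAAT box and 13.6% the TATA box. These matches describe the letters of the windows, and no binding was measured.

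Each probe set has 1 deposited linear intensity per array, already scaled by the authors to a common trimmed mean. The markers of the adrenal cortex (Star, Cyp11a1 and the like) were bright on every array and overlapped between the strains, with a summed intensity of 528860 to 603966 in BPH and 498740 to 581560 in BPL. Medulla markers summed to 207182 to 250632 in BPH and 120933 to 220043 in BPL. Other tissue was present as well. Skeletal muscle markers stood apart on 2 arrays, BPH 1 with a sum of 162708 and BPL 2 with 178884, against 10127 to 25092 on the other 4. Brown fat markers summed to 39330 to 67645 in BPH and 103233 to 308728 in BPL, highest on BPL 2. None of the 7 kidney markers on the array passed the filter on low values. Arrays BPH 1 and BPH 2 were washed on fluidics station 2 and the other 4 on station 1. All BPL arrays were scanned before all BPH arrays, so scan order and strain cannot be told apart.

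Decorin, biglycan, fibronectin and matrix Gla protein transcripts were brighter on every BPH array than on every BPL array, while the collagens, lumican and SPARC showed no such separation at the brightest probe set of each gene. None of the 13 tested probe sets passed the threshold, a Benjamini-Hochberg adjusted p under 0.05 in limma over all 7459 tested probe sets, of which 2.56% passed (1.57% higher and 0.992% lower in BPH). An unadjusted p under 0.05 was found for 4 of the 13, which belong to Dcn, Bgn, Fn1 and Mgp and were all higher in BPH; among all tested probe sets 10.8% were higher and 8.47% lower at that level, 19.3% in all. In 5 of the 13 every BPH array lay above every BPL array, against 14.8% of all tested probe sets, and in 0 every BPH array lay below, against 11.5% (26.3% in either direction). Over the 13 probe sets the median difference, BPH minus BPL on the log2 scale, was 0.25, with 9 positive and 4 negative, where 53.2% of all tested probe sets were positive. That median was 0.09 with the fluidics station as a block or within station 1 alone, and 0.16 without BPH 2. Over the brightest tested probe set of each of the 9 genes it was 0.02, the same as the 0.02 over all tested probe sets. The remaining probe set, a Col3a1 one, lay under the filter, and all 14 stayed above the floor of 201.3 on every array.

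**Figure D1:**
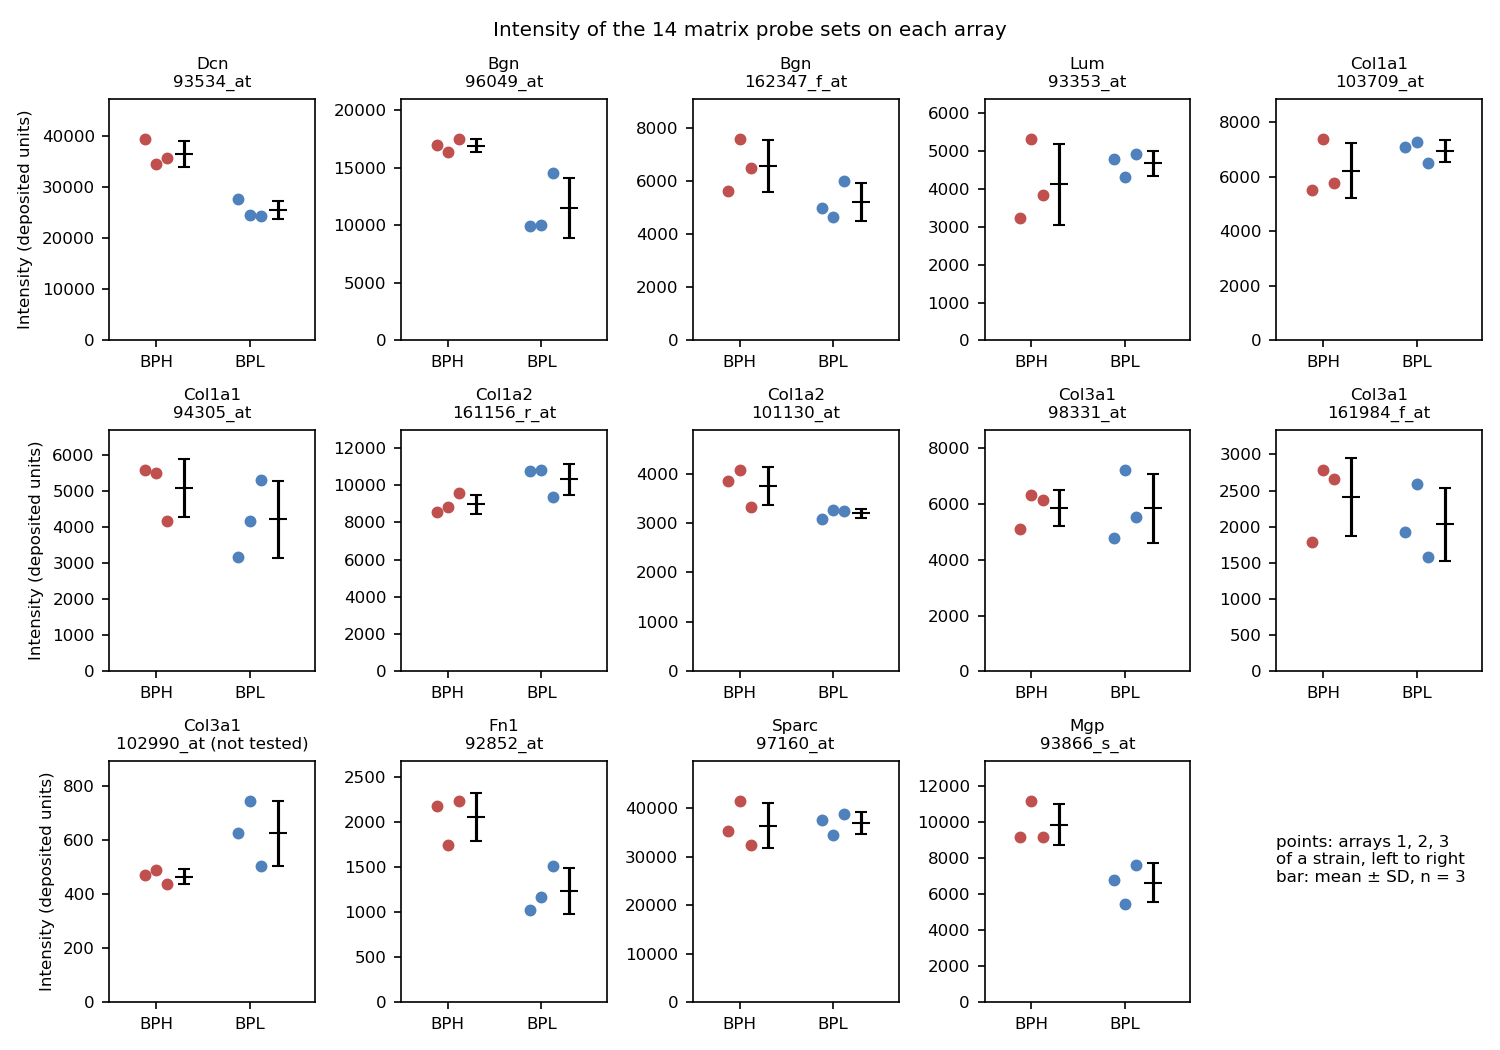
Intensity (deposited units, axes from 0) of each of the 14 probe sets on the 3 BPH arrays (left, red) and 3 BPL arrays (right, blue), with mean ± SD beside the points. Dcn, Mgp, Fn1 and Bgn 96049_at show BPH points wholly above BPL points, while Sparc, Lum and most collagen probe sets overlap.

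Decorin, which binds collagen fibrils and sequesters growth factors such as TGF-beta, had the smallest p of the 9 genes. Dcn (probe set 93534_at) read 39294.9, 34417.7 and 35665.0 on BPH 1, 2 and 3, against 27568.2, 24531.7 and 24279.3 on BPL 1, 2 and 3. The groups did not overlap, and each was tight, at 36459 ± 2534 in BPH and 25460 ± 1830 in BPL (SD, n = 3 each). The log2 difference was 0.52 (SE 0.12, limma adjusted p = 0.0603), a fold of 1.43 with a 95% interval of 1.19 to 1.72. It crossed the threshold under quantile normalization (0.57, adjusted p = 0.0407) and with a stricter filter at the 60th percentile of mean intensity (0.52, adjusted p = 0.0465), and its adjusted p over all alternatives ran from 0.0407 to 0.715.

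Biglycan, the close relative of decorin in the first class of these proteoglycans, had 2 probe sets. At the brighter one, Bgn 96049_at, the BPH arrays read 16934.0, 16327.3 and 17483.2, against 9908.0, 10041.5 and 14545.9 on the BPL arrays. BPH was nearly level, whereas BPL 3 stood well above the other BPL arrays and closer to BPH. The log2 difference was 0.58 (SE 0.16, limma adjusted p = 0.0944), a fold of 1.49 with a 95% interval of 1.16 to 1.92. Without BPL 3 it was 0.76 (adjusted p = 0.0171), and without any other single array the limma adjusted p was 0.183 to 0.255. The dimmer probe set, 162347_f_at, read 5630.4, 7572.3 and 6471.6 in BPH and 4963.2, 4630.7 and 6010.7 in BPL. It ran the same way but overlapped, with BPL 3 above BPH 1, and its log2 difference was 0.33 (SE 0.16, limma adjusted p = 0.285). The suffix f marks a probe set that can detect other members of a sequence family. Across the 6 arrays the 2 Bgn probe sets had a Pearson r of 0.81.

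Lumican, a proteoglycan of the second class that limits fibril width, did not follow decorin, although the 2 genes are direct neighbours among the protein-coding genes of chromosome 10. Lum (93353_at) read 3235.4, 5309.8 and 3823.4 in BPH and 4787.3, 4308.5 and 4927.8 in BPL. BPH held both the lowest and the highest array, and the log2 difference was -0.21 (SE 0.18, limma adjusted p = 0.57). The 95% interval of the fold ran from 0.65 to 1.15, and the log2 difference was -0.05 without BPH 1 and -0.41 without BPH 2.

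Fibronectin, the glycoprotein that cells bind through integrins and on which collagen assembles, had the largest log2 difference of the 13 probe sets. Fn1 (92852_at) read 2179.2, 1749.0 and 2229.3 in BPH, against 1024.9, 1165.9 and 1516.5 in BPL. The lowest BPH array stood above the highest BPL array, which was again BPL 3. The log2 difference was 0.74 (SE 0.20, limma adjusted p = 0.0938), a fold of 1.67 with a 95% interval of 1.21 to 2.31. It was 0.90 without BPL 3 (adjusted p = 0.0468), and without any other single array the limma adjusted p was 0.179 to 0.268.

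Matrix Gla protein, an inhibitor of calcification made by vascular and stromal cells, showed the same order. Mgp (93866_s_at) read 9186.1, 11149.3 and 9175.5 in BPH and 6800.7, 5477.4 and 7602.0 in BPL. Again the groups were apart and BPL 3 was the highest BPL array. The log2 difference was 0.58 (SE 0.15, limma adjusted p = 0.0886), a fold of 1.49 with a 95% interval of 1.17 to 1.90. It was 0.68 without BPL 3 (adjusted p = 0.0497), and without any other single array the limma adjusted p was 0.151 to 0.297. The suffix s marks a probe set whose probes can detect more than the named gene.

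SPARC, a collagen-binding matricellular protein, was bright on all arrays and showed no separation of the strains. Sparc (97160_at) read 35355.7, 41505.0 and 32403.1 in BPH and 37691.9, 34472.2 and 38914.1 in BPL. The BPL values lay wholly inside the BPH range, the log2 difference was -0.03 (SE 0.13, limma adjusted p = 0.926), and the 95% interval of the fold ran from 0.80 to 1.20.

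**Figure D2:**
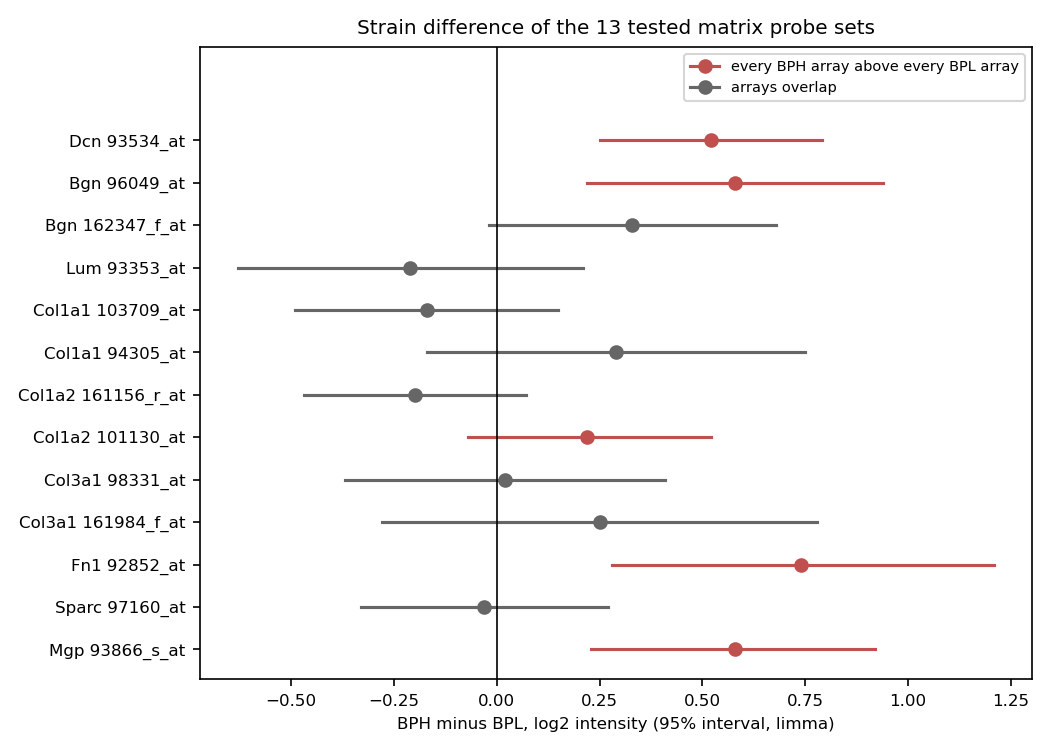
BPH minus BPL difference in log2 intensity with its 95% interval from limma, for the 13 tested probe sets ordered by role. Intervals of Dcn, Bgn 96049_at, Fn1 and Mgp lie above 0, and those of the 6 collagen probe sets, Lum, Sparc and the second Bgn probe set include it.

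The fibrillar collagens gave no common direction. Of 6 tested collagen probe sets 4 had a positive and 2 a negative difference, from -0.20 to 0.29, and limma gave each of the 6 an unadjusted p above 0.05. Type I collagen, the main fibril of capsules and tendons, is built from the products of Col1a1 and Col1a2, and for both genes the brighter probe set was lower and the dimmer one higher in BPH. Col1a1 103709_at read 5514.3, 7384.7 and 5782.6 in BPH and 7087.9, 7274.9 and 6502.5 in BPL, a log2 difference of -0.17 (SE 0.14, adjusted p = 0.548). Col1a1 94305_at read 5568.9, 5492.1 and 4152.5 in BPH and 3172.4, 4162.0 and 5300.7 in BPL, a difference of 0.29 (SE 0.20, adjusted p = 0.48). Both pairs of groups overlapped, and over the 6 arrays the 2 probe sets had a Pearson r of -0.29, so they did not track each other. Leaving out 1 array moved 103709_at between -0.30 (without BPH 2) and -0.09 (without BPH 1), and 94305_at between 0.10 (without BPL 1) and 0.47 (without BPL 3). With the station as a block 94305_at was at 0.01, and without the 2 muscle-rich arrays 103709_at was at -0.06.

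The Col1a2 probe sets ran in opposite directions over the 6 arrays (Pearson r = -0.82). Probe set 161156_r_at read 8553.5, 8803.2 and 9553.8 in BPH and 10775.7, 10807.5 and 9364.0 in BPL, a log2 difference of -0.20 (SE 0.12, limma adjusted p = 0.386). Probe set 101130_at read 3840.8, 4068.2 and 3318.1 in BPH and 3080.0, 3261.2 and 3240.4 in BPL, a difference of 0.22 (SE 0.13, limma adjusted p = 0.386). Probe set 101130_at separated the strains, by a margin smaller than the spread among BPH arrays, and 161156_r_at overlapped. With the station as a block the differences were 0.06 for 101130_at and -0.11 for 161156_r_at. The log2 ratio of the first to the second was 1.155, 1.114 and 1.526 in BPH and 1.807, 1.729 and 1.531 in BPL. These ratios did not overlap, though BPH 3 and BPL 3 nearly met. The exact two-sided permutation p of the ratio was 0.1, the smallest that 3 arrays against 3 allow, and 0.3 after adjustment over the 6 pairs of probe sets compared.

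Type III collagen accompanies type I in soft, extensible tissue. Col3a1 98331_at read 5114.1, 6328.9 and 6152.0 in BPH and 4798.3, 7218.5 and 5527.0 in BPL, a log2 difference of 0.02 (SE 0.17, limma adjusted p = 0.962). BPL 2, the array with the most brown fat and muscle signal, was the highest of the 6. Col3a1 161984_f_at read 1795.6, 2782.8 and 2659.7 in BPH and 1927.7, 2586.4 and 1583.1 in BPL, a difference of 0.25 (SE 0.23, limma adjusted p = 0.592). It was 0.09 without BPL 3, 0.45 without BPH 1 and 0.64 without the 2 muscle-rich arrays. The probe set under the filter, 102990_at, ran the other way without overlap, with 470.8, 489.7 and 438.0 in BPH and 626.0, 745.4 and 506.9 in BPL. With no filter on low values its log2 difference was -0.41 (SE 0.19, limma adjusted p = 0.442). The ratio of 161984_f_at to 102990_at separated the strains, at a mean log2 ratio of 2.35 in BPH and 1.69 in BPL (exact permutation p = 0.1, the smallest possible, and 0.3 adjusted over the 6 pairs). The other 4 pairs overlapped, with exact permutation p-values of 0.2 and 0.3.

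**Figure D3:**
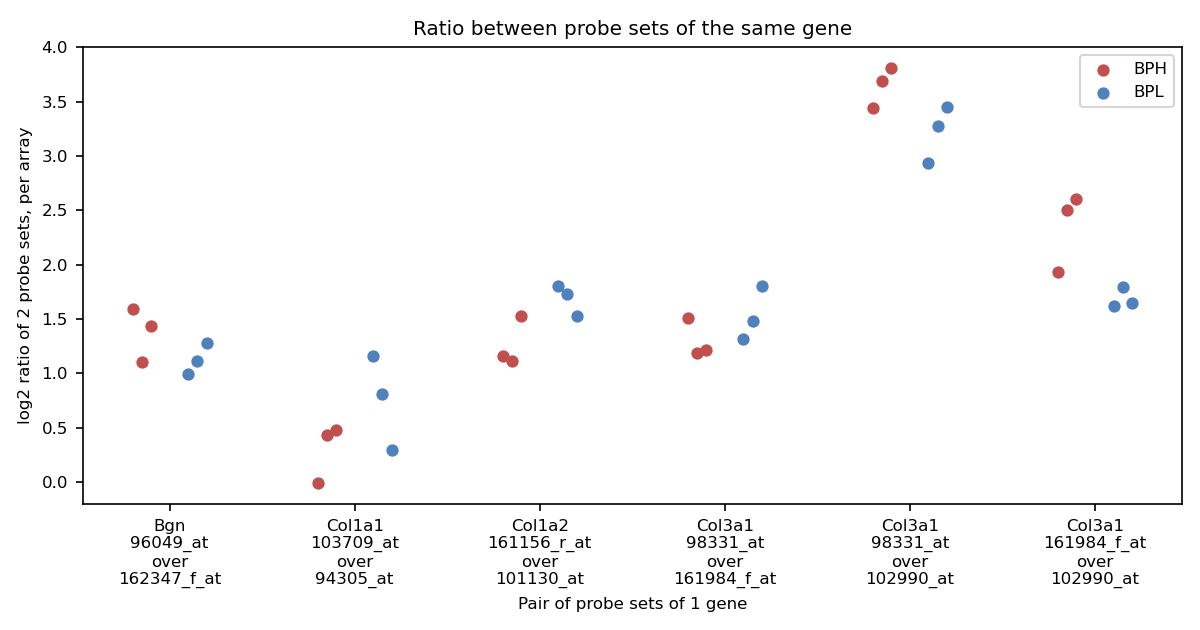
Log2 ratio between 2 probe sets of 1 gene on each array, with BPH (red) left of BPL (blue), for the 6 pairs that the 4 genes with several probe sets allow. The Col1a2 ratios and the ratio of Col3a1 161984_f_at to 102990_at do not overlap between the strains, and the other 4 pairs do.

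The separation of Dcn, Bgn, Fn1 and Mgp was set beside the technical and tissue differences among the arrays. With the fluidics station as a block, and within station 1 alone, both of which set BPH 3 alone against the BPL arrays, the log2 difference was 0.49 for Dcn, 0.63 for Bgn 96049_at, 0.87 for Fn1 and 0.48 for Mgp, and none was called, with limma adjusted p-values with the block from 0.451 for Fn1 to 0.596 for Mgp. Without the 2 arrays rich in skeletal muscle transcripts the differences were 0.44, 0.49, 0.66 and 0.49 in the same order. Without BPL 2, the array with the highest brown fat sum, they were 0.49, 0.49, 0.71 and 0.45. Among all 5665 tested genes 2.47% were called, and among all tested probe sets 53.2% had a positive difference. Brown fat markers had negative differences in all 6 tested (median -1.38, 1 called, Ucp1 at -2.68), without overlap of the sums. The Ucp1 call ended in 6 of 20 alternatives, such as the station block (-2.64, adjusted p = 0.24) and the omission of BPH 2 (-2.34, adjusted p = 0.0591) or BPH 3 (-2.71, adjusted p = 0.0657). Over all 20 the limma adjusted p ran from 0.00758 to 0.24. Medulla markers had positive differences in all 6 tested (median 0.65, 1 called, Penk at 0.61), with overlapping sums. The Penk call (limma adjusted p = 0.0487) ended in 13 of 20 alternatives, among them leaving out any 1 array, with differences from 0.53 to 0.76. Among the BPL arrays the medulla sum was highest on BPL 3, at 220043 against 178301 on BPL 1 and 120933 on BPL 2, the array on which Bgn, Fn1 and Mgp were highest in BPL. Dcn did not follow that order in BPL, with BPL 3 its lowest array. In BPH the arrays ranked for Dcn as for the medulla sum, and for Bgn, Fn1 and Mgp they did not. The part of brown fat and medulla content in the result was not tested.

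The array profile of the genes is a description over 6 arrays that share strain and tissue makeup. Deviations of log2 intensity from the mean of the 6 arrays ran from -0.62 for Fn1 on BPL 1 to 0.50 for Fn1 on BPH 3. Bgn and Fn1 were the most alike pair (Pearson r = 0.96), and each was the member most like the other. Among Dcn, Bgn, Fn1 and Mgp, a set picked by its values, r lay between 0.74 and 0.96 over 6 pairs. Between these 4 genes and the other 5 it lay between -0.91 (Bgn with Col1a2) and 0.31. Each gene stands here for its brightest tested probe set, which for Col1a2 is 161156_r_at. The other Col1a2 probe set, 101130_at, ran opposite to it (r = -0.82), so values for Col1a2 depend on that choice. Lum was most like Col1a1 at 103709_at (r = 0.85), and Sparc was most like Lum (r = 0.75). The other Col1a1 probe set, 94305_at, did not track 103709_at (r = -0.29), so values for Col1a1 depend on that choice as well. The within-strain SD of log2 intensity had a median of 0.20 over the 13 probe sets, from 0.10 to 0.35, close to the median of 0.23 over all tested probe sets.

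**Figure D4:**
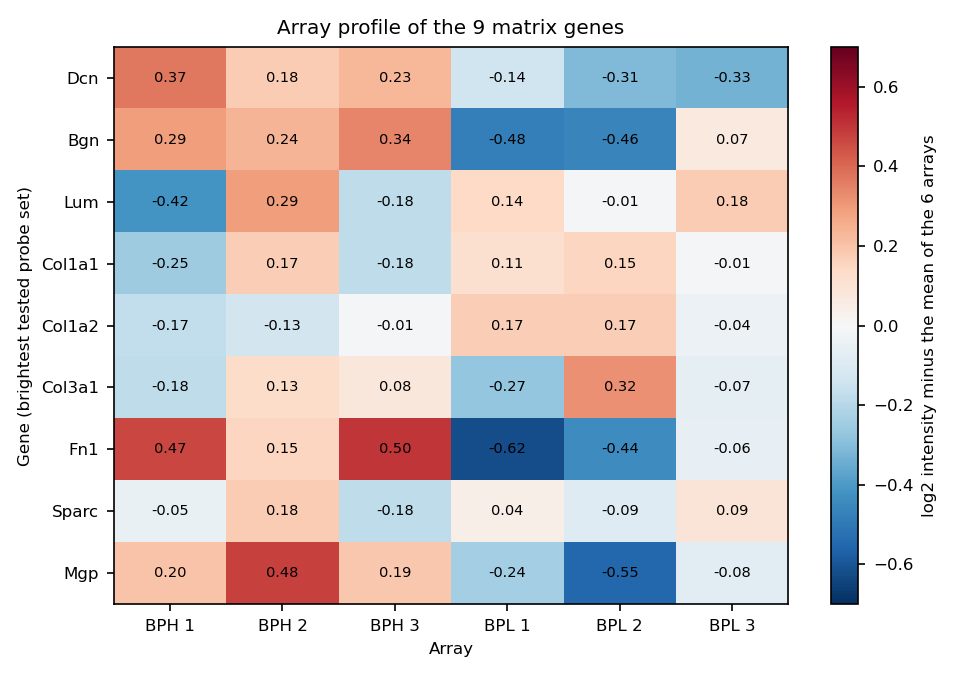
Log2 intensity minus the mean of the 6 arrays (colour and number) for the brightest tested probe set of each gene, with BPH arrays on the left and BPL arrays on the right. Dcn, Bgn, Fn1 and Mgp are positive on all 3 BPH arrays and negative on the BPL arrays except Bgn on BPL 3 (0.07). Col1a2, shown by 161156_r_at alone, is negative on all 3 BPH arrays, and the other genes are mixed.

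Outside the set, the genes whose pattern over the 6 arrays was most like the mean of the 9 were the amino acid transporter gene Slc38a2 (Pearson r = 0.988), the TGF-beta family member Gdf10 (0.985), Gt(ROSA)26Sor (0.985), the transcription factor gene Mef2d (0.985) and 1110004F10Rik (0.981). Their log2 differences were 0.67, 0.71, 0.88, 0.38 and 0.51, and none was called. For single genes the nearest non-members were Egln2 for Dcn (r = 0.989), Txndc17 for Bgn (0.993), Tmem43 for Fn1 (0.986) and Snrpe for Mgp (0.996). Among the collagens, each taken at its brightest tested probe set only, they were Wdr78 for Col1a1 (0.995), Rras for Col1a2 (0.999) and Rarres2 for Col3a1 (0.989). Igtp was nearest to Lum (0.967) and Dhx15 to Sparc (0.973). These r values are the highest over all tested genes outside the set, from only 6 arrays. How high such maxima run for an unrelated profile was not tested.

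Further matrix genes were taken from 9 lists of 157 entries, of which 132 are on the array and 84 were tested. Each gene stands for its brightest tested probe set, and of all 5665 genes so tested 2.47% were called (1.55% higher and 0.918% lower in BPH), and 19.3% had an unadjusted p under 0.05. In these lists 1 gene was called higher and 1 lower, and 14 had an unadjusted p under 0.05, 6 higher and 8 lower. The called gene that rose was Ccn2, which encodes connective tissue growth factor, a matricellular protein induced by TGF-beta and mechanical load. It read 3432.9, 5293.8 and 5092.7 in BPH, against 1783.6, 1272.4 and 2174.5 in BPL. The strains were well apart, with a log2 difference of 1.41 (SE 0.24, limma adjusted p = 0.0199). The call ended with the station as a block (1.58, adjusted p = 0.202), within station 1 (1.58, adjusted p = 0.259), without BPH 2 (1.30, adjusted p = 0.0994), BPH 3 (1.32, adjusted p = 0.103) or BPL 1 (1.44, adjusted p = 0.0613), with no filter (adjusted p = 0.168) and without the intensity trend (adjusted p = 0.0615). The other 7 tested matricellular genes were not called, and the median of the 8 was 0.32.

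The called gene that fell was Serpinh1, whose product HSP47 is the chaperone that procollagen needs to fold. It read 7478.9, 8723.7 and 8809.1 in BPH, against 12074.4, 12448.5 and 11813.3 in BPL. Every BPH array lay far below the BPL arrays, with a log2 difference of -0.54 (SE 0.12, limma adjusted p = 0.0487). The call lay at the edge of the threshold and ended under 13 of 20 alternatives, among them leaving out any 1 array, with log2 differences from -0.58 to -0.45 over all of them. The 9 tested genes of collagen processing had a median of -0.04, and the other 8 were not called.

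Among other proteoglycans 10 genes were tested and none was called at its brightest probe set, with a median of 0.39 and 7 positive. Ogn, which encodes osteoglycin of the same leucine-rich family, read 3829.0, 3735.1 and 2941.2 in BPH and 2518.5, 1605.4 and 1439.8 in BPL at 160877_at. The groups did not overlap, and the log2 difference was 0.95 (SE 0.22, limma adjusted p = 0.0678). Its other probe set, 99549_at, with 3110.8, 2861.0 and 3080.6 in BPH and 1835.3, 1691.7 and 1565.0 in BPL, was called at 0.83 (SE 0.14, limma adjusted p = 0.02), and lost that call in 7 of 19 alternatives, such as the station block (0.86, adjusted p = 0.246), station 1 alone (0.86, adjusted p = 0.454), the replicate block and the omission of any 1 BPH array. Gpc3, a cell-surface glypican, differed by 0.54 (SE 0.14, limma adjusted p = 0.0766).

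The basement membrane list, of sheet-forming collagens and laminins, had a median of -0.08 over 13 genes, with 4 lower and none higher at an unadjusted p under 0.05 and none called. Among all tested probe sets 8.47% were lower and 10.8% higher at that level. Col15a1, whose product bridges basement membrane and fibrils, averaged 1495 ± 272 in BPH and 2277 ± 210 in BPL (SD, n = 3 each), a log2 difference of -0.62 (SE 0.19, limma adjusted p = 0.115). Col18a1, the source of endostatin, differed by -0.33 (adjusted p = 0.182) at its brightest probe set. The other 2 tested Col18a1 probe sets gave -0.41 and 0.24. Other collagens had a median of -0.28 over 8 genes and none called, led by Col9a1, a cartilage collagen, at -1.59 (SE 0.47, adjusted p = 0.112), with 402.4 to 1918.5 in BPH and 2401.9 to 3036.2 in BPL, and Col6a1 at -0.30 (adjusted p = 0.341).

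In the elastic fibre list none of 8 genes was called and the median was -0.09. Eln, which encodes elastin, averaged 3492 ± 285 in BPH and 4806 ± 302 in BPL (SD, n = 3 each), a log2 difference of -0.46 (SE 0.13, limma adjusted p = 0.0933). The microfibril gene Mfap5 stood the other way at 0.92 (SE 0.29, adjusted p = 0.139), with its second probe set at 0.01. Proteases and their inhibitors (8 genes, median 0.09), matrix receptors (10 genes, median 0.07) and TGF-beta signalling (10 genes, median 0.02) held no called gene. Their smallest p-values belonged to Plat, the tissue plasminogen activator (0.47, adjusted p = 0.195), and Adam10 (0.36, adjusted p = 0.358), to the integrin gene Itga6 (0.57, adjusted p = 0.126) and the dystroglycan gene Dag1 (-0.36, adjusted p = 0.251, with its second probe set at 0.06), and to Tgif1 (-0.73, adjusted p = 0.351) and Tgfb1i1 (-0.25, adjusted p = 0.363).

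**Figure D5:**
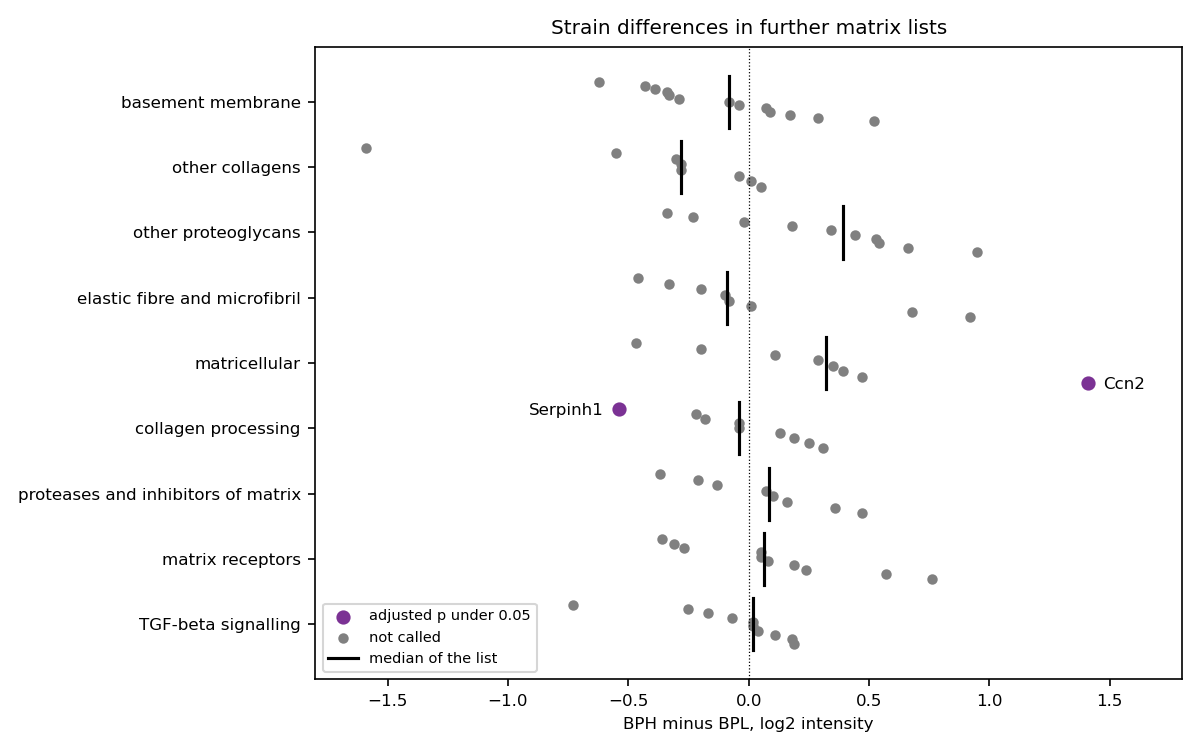
BPH minus BPL difference in log2 intensity of each tested gene (points) in 9 further matrix lists, with the list median as a bar and called genes in purple. Ccn2 at 1.41 and Serpinh1 at -0.54 are the called genes, and medians run from -0.28 for other collagens to 0.39 for other proteoglycans.

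Markers of fibroblasts and capsule cells were checked beside the 9 genes. Of 13 listed 11 are on the array and 9 were tested. Of these 9, 1 was called, against 2.47% of all 5665 tested genes. The median difference of the 9 was 0.17, with 7 positive, against 53.2% of all tested probe sets. The 11 on the array summed to 18636 to 20199 in BPH and 14672 to 17235 in BPL. The called gene was Igfbp6, an insulin-like growth factor binding protein of fibroblasts, with 4619.8, 4544.8 and 4442.5 in BPH and 2251.0, 2430.9 and 2918.5 in BPL. The BPH values were nearly level and well above BPL, a log2 difference of 0.85 (SE 0.14, limma adjusted p = 0.0182). The call ended under 9 of 20 alternatives, such as the station block (0.82, adjusted p = 0.284), station 1 alone (0.82, adjusted p = 0.491) and the omission of any 1 BPH array or of BPL 1, with differences from 0.77 to 0.96. Pdgfra, the growth factor receptor that marks fibroblasts, read 4496.8, 3962.9 and 4569.7 in BPH and 2114.4, 3316.2 and 3047.9 in BPL at its brightest probe set, a log2 difference of 0.64 (SE 0.18, limma adjusted p = 0.0999), and -0.22 at a dimmer one. Gli1, a mark of capsule progenitors, and Vim lay under the filter on low values. Summed markers of smooth muscle (18930 to 22487 in BPH, 18348 to 23218 in BPL) and endothelium (35749 to 37478 in BPH, 35890 to 38468 in BPL) overlapped between the strains. So did those of macrophages (21543 to 22927 in BPH, 20782 to 23918 in BPL), blood (70481 to 73838 in BPH, 61874 to 100246 in BPL) and adipocytes (108280 to 133443 in BPH, 100388 to 177328 in BPL). Single markers within these sums ran both ways. A limma unadjusted p under 0.05 was reached by 19.3% of all 5665 genes tested by their brightest probe set. Of 8 macrophage markers tested, 3 were higher and 2 lower in BPH at that level. The smooth muscle (7 tested), endothelium (9 tested) and adipocyte (7 tested) lists each had 1 higher and 1 lower at that level. None of these markers was called. Schwann cell markers summed to 9851 to 10583 in BPH and 12034 to 14249 in BPL, and did not overlap. Of the 4 tested, 2 had a positive difference (Mbp 0.03, Mal 0.17) and 2 a negative one (Pmp22 -0.49, Sox10 -0.35), with none called. Pmp22 was the brightest Schwann cell marker on every array. The fibroblast marker sums did not overlap, but without Igfbp6 and Pdgfra, a split chosen after seeing the data, they did, at 9520 to 11294 in BPH and 8723 to 11488 in BPL. Cxcl12, a chemokine of stromal cells, stood the other way at -0.51 (limma adjusted p = 0.259). Within strains the sums of all 11 fibroblast markers followed the 4 genes only in part. BPL 2 had the highest sum in BPL and the lowest Mgp, and BPH 1 the lowest sum in BPH and the highest Dcn. Bgn 96049_at and Fn1 were highest in BPH on BPH 3, which had the highest sum there. Both were lowest in BPL on BPL 1, which had the lowest sum there (14672, against 14689 on BPL 3). The part of fibroblast content in the differences was not tested. No marker was listed at 0, and the intensities carry no detection call.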

How the data were processed

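The authors deposited 1 linear intensity per array for every probe set; which software produced it is not given in the labels or file headers. The trimmed mean (2% off either end) was 2501.31 to 2501.5 across the 6 arrays, and no scaling was added. Per the file headers of the run files, which hold no measurement, all arrays came from 1 chip lot. Values below the 20th percentile of the table, 201.3, were set to that floor and taken to log2. The 66 control probe sets and those with a mean intensity under the 40th percentile of all probe sets, 678.6, were left out, which left 7459. BPH minus BPL differences were estimated by lmFit, then eBayes with trend (limma 3.58.1, R 4.3.3), two-sided, with Benjamini-Hochberg adjustment over all tested probe sets. The fit was tested on simulated data. Gene names came from the platform annotation (10855 probe sets with 1 gene, 396 with several, 1237 with none), updated by gene number to RefSeq symbols for 10839. Promoter windows are RefSeq's.

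The genes, lists and tests were chosen with earlier results of these data known. Named from each further list are its called genes, or else the 2 with the smallest p; from the fibroblast markers, Igfbp6 and Pdgfra, with Gli1, Vim and Cxcl12 chosen after their values were seen. Nearest patterns are those of highest Pearson r. The number of arrays limits the precision. The replicate numbers did not pair the arrays. Ratios between probe sets were compared by exact permutation over arrays (scipy 1.17.1).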

Additional observations from a re-analysis of the deposited data

How the results depend on the processing

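With 3 arrays per strain, 1 array decides several values. Across 255 refits of the 13 member differences, 243 kept their direction and their side of the threshold. Col3a1 98331_at turned to -0.01 under quantile normalization and to between -0.11 and 0.18 when 1 array was left out, and Sparc to between -0.13 and 0.05 when 1 array was left out. Dcn passed under quantile normalization (0.57) and with the filter at the 60th percentile (0.52). Leaving out 1 array gave 0.48 to 0.76 for Bgn 96049_at, 0.62 to 0.90 for Fn1 and 0.45 to 0.68 for Mgp. All 3 passed without BPL 3, and none of the 3 passed without any other single array. Without BPL 3, 352 of all 7459 tested probe sets were called, against 191 with all arrays. Called member probe sets numbered 1 under quantile normalization, 1 with the filter at the 60th percentile and 0 to 3 when 1 array was left out.

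Over all probe sets 191 were called. Testing every probe set gave 52, eBayes with no trend 72, the fluidics station as a block 17, station 1 on its own 7, omission of the 2 muscle-rich arrays 116, and an adjusted p under 0.01 gave 44. Leaving out 1 array gave 42 (without BPH 2) to 352 (without BPL 3). With the replicate block it was 124, 112 of them among the 191; deviations of same-numbered arrays correlated at -0.213, -0.081 and 0.014, and no member call changed. A filter on the mean log2 value, chosen after seeing the data, called 184 of 7293, 183 of them among the 191. In the other alternatives the count stayed within 1.5 times. No member probe set lay near the floor, so dim signal limits only Col3a1 102990_at. Scan order could give no value, since each strain was scanned in its own stretch.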
